A study of Mus musculus with 6 samples.

Results

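The protein kinase C family genes are described here at the level of chromatin, as ATAC-seq reads around their transcription start sites and in the accessible peaks of their loci. Members were chosen by symbol from the deposited table of start-site windows, and all 8 listed genes (Prkca, Prkcb, Prkcd, Prkce, Prkch, Prkci, Prkcq and Prkcz) had a row among 49366 windows. ATAC-seq uses a transposase that cuts accessible DNA and adds sequencing adapters. The nuclei were sorted from skeletal muscle of male C57BL/6J mice for PCM1, a protein that surrounds muscle fibre nuclei. Mice 8 weeks old received AAV6 vectors, with a short hairpin RNA (shRNA) against Yap in muscles of one side and an shRNA against the bacterial gene LacZ in the contralateral muscles, and tissue was collected after 28 days. Each group, AAV6:LacZ-shRNA and AAV6:Yap-shRNA, had 3 replicates, and each replicate pooled 4 gastrocnemius and 4 tibialis anterior muscles. Yap, an effector of Hippo signalling, coactivates transcription and reaches DNA through TEAD factors.

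Protein kinase C enzymes are serine and threonine kinases that carry signals from membrane lipids. The conventional enzymes, alpha (Prkca) and beta (Prkcb), need calcium and diacylglycerol, whereas delta (Prkcd), epsilon (Prkce), eta (Prkch) and theta (Prkcq) need diacylglycerol without calcium. The atypical enzymes iota (Prkci) and zeta (Prkcz) respond to neither and bind the Par polarity proteins. In skeletal muscle theta is a predominant isoform, and the family is known from the link between lipid overload and insulin resistance and from insulin-stimulated glucose uptake.

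Start sites of the members differed in sequence and in whether a peak lay over them, so 4 promoters are shown, each from 250 bases before to 50 after a RefSeq gene start on GRCm38.p6. Capitals mark exact matches on either strand to the motifs searched, of which only GGGCGG (the GC box) and CAGCTG (an E-box bound by myogenic factors) occurred in these 4. The other motifs were ACATTCC for TEAD, TGACGTCA for CREB and TGANTCA for AP-1, and no motif contains another. Prkca (chr11:108343839-108344138, minus strand) and Prkcq (chr2:11172132-11172431, plus strand) lay under a peak, and Prkcb (chr7:122288875-122289174, plus strand) and Prkcz (chr4:155361379-155361678, minus strand) did not.
Prkca: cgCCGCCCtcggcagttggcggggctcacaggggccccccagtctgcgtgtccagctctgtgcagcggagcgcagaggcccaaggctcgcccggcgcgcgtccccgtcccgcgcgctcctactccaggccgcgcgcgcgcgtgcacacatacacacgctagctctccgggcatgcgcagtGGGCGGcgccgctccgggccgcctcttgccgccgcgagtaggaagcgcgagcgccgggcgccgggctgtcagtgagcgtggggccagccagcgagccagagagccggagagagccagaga
Prkcq: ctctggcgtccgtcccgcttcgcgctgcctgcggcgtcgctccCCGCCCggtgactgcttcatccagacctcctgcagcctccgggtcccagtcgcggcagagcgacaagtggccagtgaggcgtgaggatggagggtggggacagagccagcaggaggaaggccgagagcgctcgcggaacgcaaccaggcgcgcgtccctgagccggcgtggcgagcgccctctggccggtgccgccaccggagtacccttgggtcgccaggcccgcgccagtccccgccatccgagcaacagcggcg
Prkcb: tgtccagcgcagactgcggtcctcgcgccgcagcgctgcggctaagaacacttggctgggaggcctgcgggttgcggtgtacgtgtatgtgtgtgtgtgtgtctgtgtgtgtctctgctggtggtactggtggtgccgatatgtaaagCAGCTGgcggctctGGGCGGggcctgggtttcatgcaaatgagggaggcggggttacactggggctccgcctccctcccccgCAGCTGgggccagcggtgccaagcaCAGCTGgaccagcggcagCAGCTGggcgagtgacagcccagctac
Prkcz: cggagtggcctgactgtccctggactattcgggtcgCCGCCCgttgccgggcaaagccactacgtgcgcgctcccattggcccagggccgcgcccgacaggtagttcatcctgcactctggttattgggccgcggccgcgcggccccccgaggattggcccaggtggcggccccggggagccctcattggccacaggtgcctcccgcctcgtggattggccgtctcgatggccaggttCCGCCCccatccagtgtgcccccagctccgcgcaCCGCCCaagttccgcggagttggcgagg

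All 4 were rich in G and C. The GC content was 75.3% for Prkca, 73.0% for Prkcq, 65.3% for Prkcb and 71.0% for Prkcz, against a median of 52.7% over 32851 RefSeq promoters. CpG dinucleotides numbered 42 in Prkca, 37 in Prkcq, 19 in Prkcb and 31 in Prkcz, where the median promoter held 7. Thus the Prkcz start without a peak held fewer CpG than the starts of Prkca and Prkcq with one, and more than the median promoter. The Prkci promoter, which lay under a peak and is not shown, held 22. The Prkcb sequence held 4 E-boxes, and 0.0274% of all promoters held at least 4, a count chosen after its value was seen. At least 1 E-box occurred in 16.3% of promoters, a GC box in 35.7%, the AP-1 motif in 7.81%, the TEAD motif in 3.85% and the CREB motif in 1.79%. RefSeq entries matched 6 of 8 members, with 9 promoters in all, and none of the 9 held ACATTCC. Prkce and Prkch had no entry.

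The members' loci held 3 peaks with a TEAD match, which are shown with 30 bases to each side because Yap acts through TEAD factors. They lay in an intron of Prkca (chr11:108301418-108301484), in an intron of Prkch (chr12:73772150-73772216) and at the 5′ end of Prkci (chr3:30995425-30995491). All are given on the plus strand of GRCm38 with the motif in capitals.
Prkca: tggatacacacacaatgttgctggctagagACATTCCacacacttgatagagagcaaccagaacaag
Prkch: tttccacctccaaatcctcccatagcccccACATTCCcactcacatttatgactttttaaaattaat
Prkci: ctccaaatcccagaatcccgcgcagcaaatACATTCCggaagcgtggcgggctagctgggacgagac

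A match is a description of the letters and not evidence of binding. The log2 fold change of Yap-shRNA over LacZ-shRNA was -0.12 (SE 0.13) for the Prkca peak that holds the match, -0.07 (SE 0.35) for the Prkch peak and -0.12 (SE 0.14) for the Prkci peak. Each of the 3 was smaller than its standard error. Of the 42 peaks linked to members, 7.14% held ACATTCC, where 8.96% of all 36097 peaks did.

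Read totals per sample ranged between 3326803 and 10319467 in windows and between 2588520 and 6871176 in peaks, with LacZ-shRNA replicate 2 the lowest in both. The window of Yap1, the targeted gene, held 12.1 to 16.7 CPM (read counts scaled to a common library size) in LacZ-shRNA and 12.1 to 16.5 CPM in Yap-shRNA. An shRNA acts on RNA, so this window does not check the knockdown. Muscle fibre marker windows had a median of 20.6 CPM per kb in LacZ-shRNA, and the medians of leukocyte, fibroblast, endothelial, satellite cell and Schwann cell lists lay between 3.75 and 7.29. The summed level of 7 leukocyte markers ran from 34.5 to 35.4 CPM per kb in LacZ-shRNA and from 37.6 to 38.1 in Yap-shRNA, and that of 5 endothelial markers from 29.2 to 32.2 and from 27.0 to 27.4. Summed levels of the muscle fibre, fibroblast, satellite cell and Schwann cell lists overlapped between the groups. The median log2 fold change was 0.035 over the leukocyte markers and 0.0041 over the endothelial markers. It was -0.099 over the muscle fibre, -0.12 over the fibroblast, -0.048 over the satellite cell and 0.069 over the Schwann cell markers. In edgeR the unadjusted p was under 0.05 in 1 leukocyte, 2 fibroblast and 2 endothelial markers, and in 4.9% of all windows. No marker was at 0 or passed the test after adjustment, and the markers' part in the members' values was not tested. In pooled nuclei, fewer nuclei of a type and less accessible chromatin per nucleus cannot be told apart.

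No member window passed the test for a change with Yap-shRNA. In edgeR's quasi-likelihood test 0 of 8 passed an adjusted p of 0.05, where 0.0223% of all windows did. None had an unadjusted p under 0.05 (4.9% of all windows), and in none did the groups fail to overlap (10.1% of all windows). The log2 fold change was above 0 in 4 members and below 0 in 4, with a median of -0.01 that equals the median of all windows to 2 decimals. With scaling by library size alone the signs of Prkca (0.0017) and Prkcz (0.037) turned, and leaving out single samples turned those of Prkca, Prkcd, Prkch, Prkcq and Prkcz. Together the 95% intervals of the 8 members spanned 0.742-fold to 1.35-fold. Values below are CPM scaled by TMM factors, and a window joins the stretches within 1 kb of any start annotated for the gene.

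**Figure D1:**
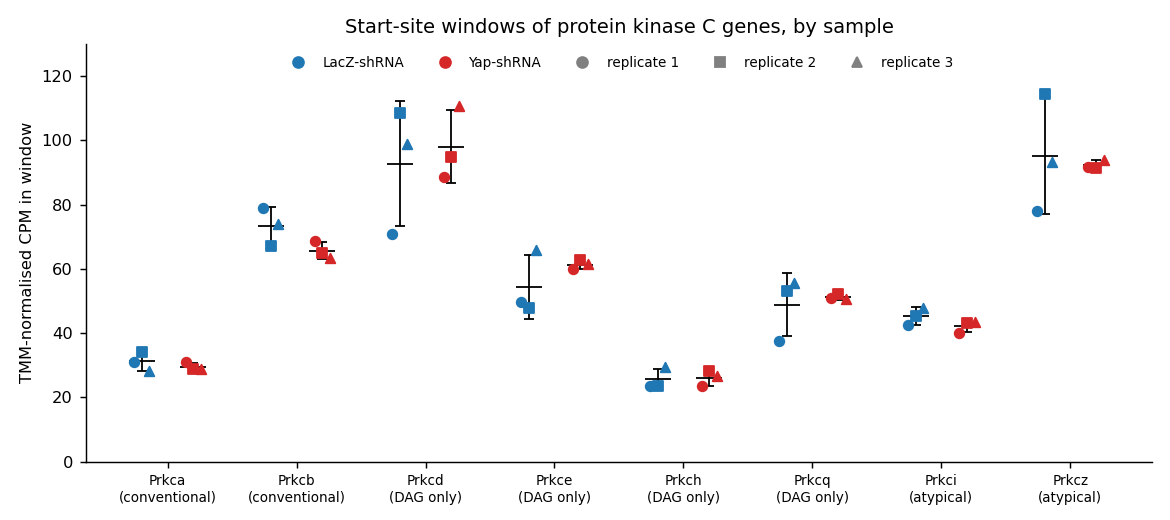
Window level in TMM-normalised CPM for each of the 8 genes, by sample. Points are the 3 LacZ-shRNA (blue) and 3 Yap-shRNA (red) replicates, lines the mean and bars the SD. The groups overlap in all 8 genes, and the LacZ-shRNA points of Prkcd and Prkcz are the most widely spread.

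Prkca encodes the alpha enzyme, a conventional kinase expressed in muscle fibres. Its window held 31.1, 34.3 and 28.3 CPM in LacZ-shRNA replicates 1, 2 and 3, and 31.0, 28.9 and 28.9 CPM in Yap-shRNA. The Yap-shRNA values lay within the LacZ-shRNA range, and the log2 fold change in edgeR was -0.06 (SE 0.14, adjusted p 0.983). Prkcb, the other conventional gene, known for its role in B lymphocytes, held 79.1, 67.3 and 74.1 CPM with LacZ-shRNA and 68.6, 65.0 and 63.5 CPM with Yap-shRNA. Only LacZ-shRNA replicate 2 came below the highest Yap-shRNA sample. The change was -0.17 (SE 0.13, edgeR adjusted p 0.949).

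Among the genes whose enzymes need only diacylglycerol, Prkcd, whose delta kinase is tied to apoptosis, held 70.9, 108.6 and 98.8 CPM with LacZ-shRNA and 88.6, 94.9 and 110.6 CPM with Yap-shRNA. The spread within LacZ-shRNA was wider than the difference between the groups, 0.09 on the log2 scale (SE 0.15, edgeR adjusted p 0.975). Prkce, whose epsilon kinase has been studied in cardiac protection and hepatic insulin resistance, held 49.7, 47.7 and 65.7 CPM with LacZ-shRNA and 60.0, 62.7 and 61.4 CPM with Yap-shRNA. LacZ-shRNA replicate 3 was the highest of all 6 samples and the other two controls the lowest. Its change was 0.15 (SE 0.14, edgeR adjusted p 0.951), and it lay between 0.063 without LacZ-shRNA replicate 1 and 0.33 without LacZ-shRNA replicate 3.

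Prkch, the eta gene that is best known from epithelia, held 23.7, 23.7 and 29.4 CPM with LacZ-shRNA and 23.4, 28.2 and 26.5 CPM with Yap-shRNA. The change on the log2 scale was 0.01 (SE 0.15, edgeR adjusted p 0.998). The lowest sample was from Yap-shRNA and the highest from LacZ-shRNA, and the groups overlapped. Prkcq, the theta gene and the isoform most tied to skeletal muscle, held 37.6, 53.2 and 55.7 CPM with LacZ-shRNA and 50.8, 52.2 and 50.5 CPM with Yap-shRNA. The Yap-shRNA samples were close together at 51.2 ± 0.91 CPM (SD, n = 3), and LacZ-shRNA replicate 1 stood below them. The change was 0.07 (SE 0.14, edgeR adjusted p 0.981).

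The atypical gene Prkci, whose iota kinase works in cell polarity, held 42.5, 45.5 and 48.0 CPM with LacZ-shRNA and 39.9, 43.2 and 43.6 CPM with Yap-shRNA. LacZ-shRNA replicate 1 overlapped the Yap-shRNA samples, and the change was -0.10 (SE 0.13, edgeR adjusted p 0.964). Prkcz, the zeta gene and a partner of the same polarity proteins, held 78.0, 114.4 and 93.4 CPM with LacZ-shRNA and 91.9, 91.5 and 94.0 CPM with Yap-shRNA. The LacZ-shRNA replicates enclosed the Yap-shRNA samples on both sides, with a change of -0.03 (SE 0.14, edgeR adjusted p 0.990). LacZ-shRNA replicate 1 was the lowest of 6 samples in 3 members (Prkcd, Prkcq and Prkcz) and LacZ-shRNA replicate 3 the highest in 4.

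Levels of different genes were compared per kb of window in LacZ-shRNA. Prkcd (8.69 CPM per kb), Prkcz (8.61) and Prkce (8.51) were the highest, and their ranges over the 3 replicates overlapped. Below them came Prkcb (6.51), Prkch (6.32), Prkcq (5.95), Prkci (5.62) and Prkca (4.97), and each neighbouring pair among these 5 overlapped. Prkce and Prkcb were the only neighbours in the order whose ranges did not overlap. This did not set the 3 highest apart as a group. The range of Prkcd (lowest 6.64) overlapped those of Prkcb (highest 7.01), Prkch (7.26) and Prkcq (6.79). That of Prkcz (lowest 7.05) overlapped Prkch. Over 20540 coding windows the median was 5.68 CPM per kb with quartiles of 3.62 and 8.23, so 3 members lay above the upper quartile and none below the lower.

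Levels in windows and in peaks ordered the genes differently. Prkca was the lowest of the 8 by window, yet its 5′ end carried the highest promoter peak of the family. Over the 6 samples the Prkca window held 1390 reads, and the single peak that touches it held 2616 reads, or 188% of the window count. For the other members with a peak, the peak count ran from 15.6% (Prkcd) to 55.3% (Prkcq) of the window count. Whole peaks were counted, also where they reach beyond the window, so these are not shares of the window's reads. The Prkca window overlaps the window of Apoh, a plasma glycoprotein gene, at the 5′ end, and whether this overlap accounts for the lower window count was not tested. Windows of Prkci (Mir7008), Prkcq (Gm37766) and Prkcz (Gm27200) also overlap another gene's window, as do 21.0% of all windows, and counts of these 4 members are uncertain to that extent. Prkcb, Prkcd, Prkce and Prkch overlap none.

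**Figure D2:**
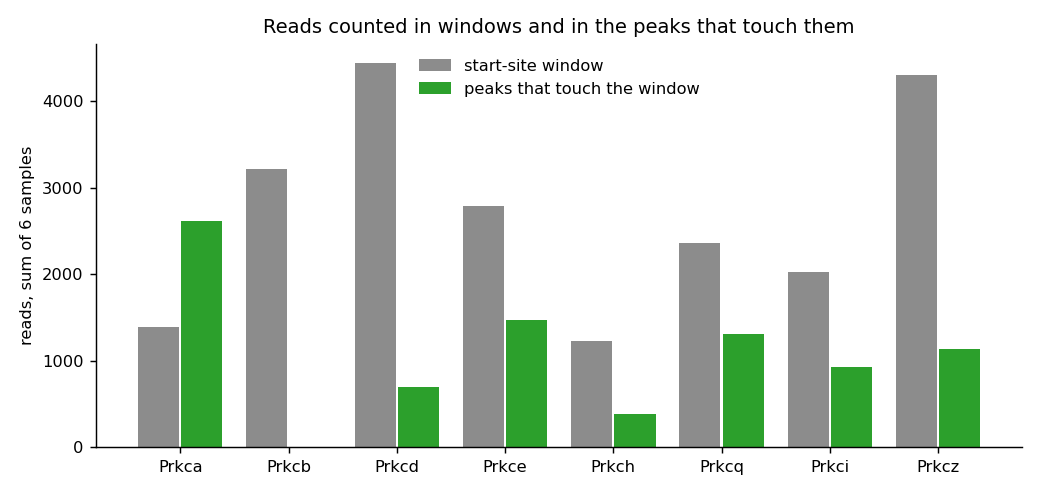
Reads summed over 6 samples in the start-site window of each gene (grey) and in the peaks that touch it (green), on a linear axis from 0. Prkca is the gene with more reads in its peak (2616) than in its window (1390), and Prkcb has no peak at a start.

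A peak lay within 1 kb of the gene's 5′ end in 6 of 8 members, and in 47.7% of 20540 coding genes. The exceptions were Prkcb and Prkcz. Prkcb had no peak at any annotated start, although its window, at 6.51 CPM per kb, was near the upper quartile of 6.53 for coding windows without a peak and below the median of 9.27 for those with one. Prkcz instead carried peaks at the starts of 2 processed transcripts, 92.6 and 87.4 kb downstream of its 5′ end. Prkcq had a peak at its 5′ end and another at an internal start 54.5 kb downstream.

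Per kb of peak in LacZ-shRNA, an order added after the window levels were seen, the Prkca promoter peak held 37.9 ± 6.36 CPM (SD, n = 3), above 93.7% of all peaks. Prkcq followed with 28.6 ± 7.59, Prkci with 26.8 ± 4.08, Prkcd with 24.7 ± 2.31 and Prkce with 21.2 ± 5.12. Prkch was the lowest at 16.2 ± 3.78, above 37.7% of all peaks. The internal peaks of Prkcz, at 25.0 ± 4.58 and 18.0 ± 8.64, and of Prkcq, at 19.3 ± 4.67, lay in the same span as the 5′ peaks.

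**Figure D3:**
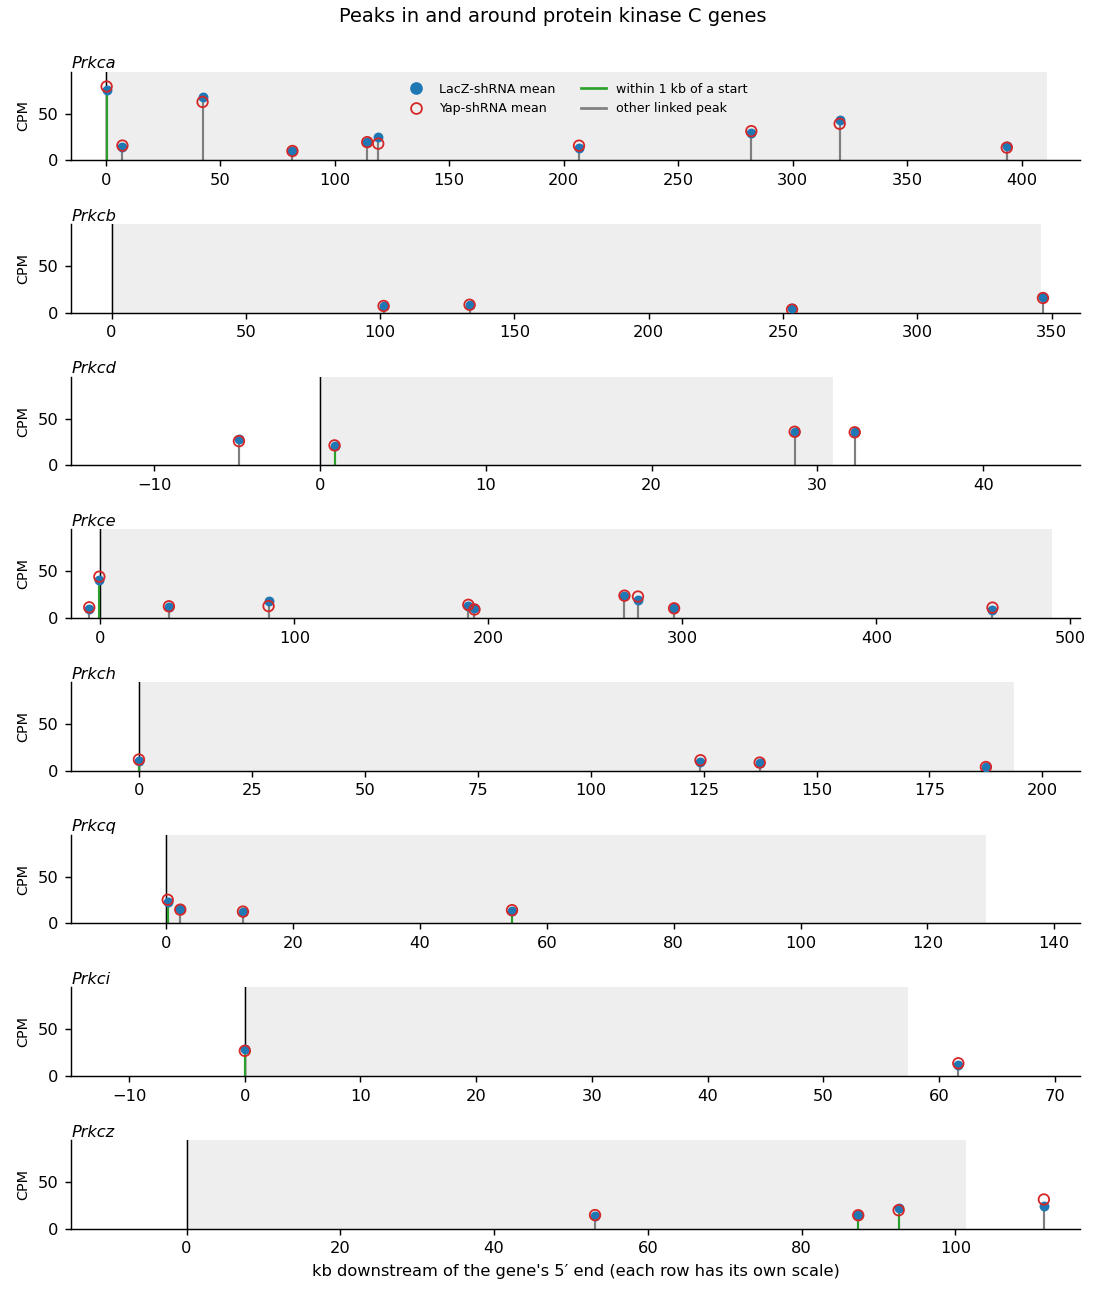
Peaks in and within 10 kb of each gene by distance downstream of its 5′ end (kb, own scale per row), with height in mean TMM-normalised CPM. Filled points are LacZ-shRNA and open points Yap-shRNA, green stems mark peaks within 1 kb of an annotated start of the gene and shading the gene body. Prkcb and Prkcz lack a peak at the 5′ end, and Prkca has the tallest.

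The 8 loci, taken as gene bodies with 10 kb to each side, held 42 peaks. Prkca and Prkce had 10 each, Prkci had 2 and the other 5 members 4 each. Of these peaks 27 were intronic, 9 lay at an annotated start of the member and 6 in the flanks. None passed the edgeR test, where 0.618% of all peaks did. The count with an unadjusted p under 0.05 was 3 (7.14%, against 8.9% of all peaks), and in 3 (7.14%, against 13.3% of all peaks) the groups did not overlap. The median log2 fold change was 0.04 with 24 peaks above 0 and 18 below, and that of all peaks was -0.003.

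**Figure D4:**
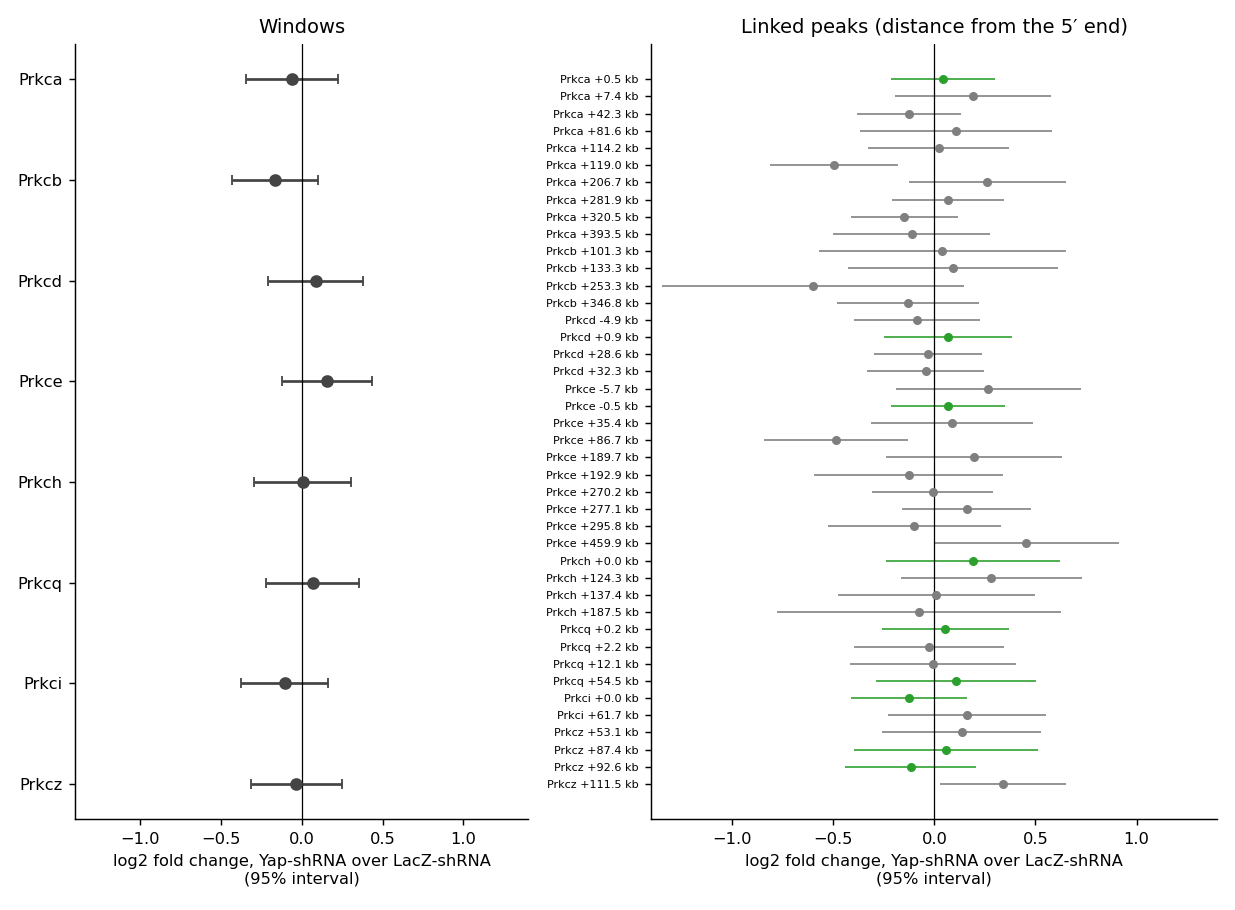
Log2 fold change of Yap-shRNA over LacZ-shRNA with its 95% interval for the 8 windows (left) and the 42 linked peaks (right, labelled by distance from the 5′ end, green for peaks at an annotated start). All 8 window intervals include 0, and the intervals of the Prkca peak at +119.0 kb and the Prkce peak at +86.7 kb lie below it and that of the Prkcz peak at +111.5 kb above it.

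An intronic Prkca peak 119.0 kb downstream of the 5′ end (chr11:108224486-108225300) had the smallest p of the family. It held 21.9, 28.4 and 25.2 CPM with LacZ-shRNA and 18.3, 16.4 and 18.4 CPM with Yap-shRNA. All 3 Yap-shRNA samples were lower than all LacZ-shRNA samples. The log2 fold change of -0.50 (SE 0.16, edgeR p 0.00279) did not pass adjustment (adjusted p 0.181). An intronic Prkce peak 86.7 kb downstream (chr17:86254209-86254807) held 17.8, 19.1 and 17.8 CPM with LacZ-shRNA and 13.5, 13.3 and 11.9 CPM with Yap-shRNA. Its groups did not overlap either, with a change of -0.48 (SE 0.18, edgeR p 0.00879, adjusted p 0.310). The central 200 bases of both (chr11:108224794-108224993 and chr17:86254409-86254608, plus strand) are shown because these peaks had the smallest p of the 42, with the E-box of the Prkca peak in capitals.
Prkca: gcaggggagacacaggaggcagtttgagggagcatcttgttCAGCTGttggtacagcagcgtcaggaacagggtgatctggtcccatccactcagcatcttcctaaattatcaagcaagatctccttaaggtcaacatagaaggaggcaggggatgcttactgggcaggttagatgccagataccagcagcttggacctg
Prkce: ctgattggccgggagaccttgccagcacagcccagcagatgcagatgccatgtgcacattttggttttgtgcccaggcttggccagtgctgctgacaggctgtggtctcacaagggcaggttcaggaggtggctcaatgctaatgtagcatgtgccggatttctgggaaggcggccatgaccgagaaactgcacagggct

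The other peak with unadjusted p under 0.05 lay in the flank of Prkcz (chr4:155249051-155250683), over the start of Faap20, a gene of the Fanconi anaemia DNA repair complex. It held 19.7, 28.9 and 26.1 CPM with LacZ-shRNA and 26.6, 29.7 and 37.9 CPM with Yap-shRNA. Here the groups overlapped, and the change was 0.34 (SE 0.15, edgeR p 0.0326, adjusted p 0.490). It was 0.17 without Yap-shRNA replicate 3 and 0.21 without LacZ-shRNA replicate 1. The remaining peak with groups apart, chosen after its values were seen, was intronic in Prkce 459.9 kb downstream, with 7.94, 9.34 and 7.81 CPM with LacZ-shRNA and 10.9, 11.0 and 11.9 CPM with Yap-shRNA. Its change was 0.46 (SE 0.23, edgeR adjusted p 0.566). The same gene thus held intronic peaks with opposite signs, none past the threshold. The study named Prkce among its top genes with lower RNA and a less accessible enhancer after Yap knockdown. It used its own enhancer annotation and a p-value cut that it does not describe as adjusted. In edgeR here the Prkce peak at 86.7 kb, lower with Yap-shRNA, was under that cut (unadjusted p 0.00879). The peak at 459.9 kb, higher with Yap-shRNA, was not (unadjusted p 0.0508). Whether either peak is the study's enhancer was not tested, and RNA was not examined here.

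No promoter peak passed the test. The Prkca peak (chr11:108342473-108344462) held 72.3, 64.5 and 89.3 CPM with LacZ-shRNA and 80.3, 78.5 and 77.9 CPM with Yap-shRNA, a change of 0.04 (SE 0.13, edgeR adjusted p 0.970). The Prkce peak (chr17:86166324-86168260) held 39.7, 31.8 and 51.6 CPM with LacZ-shRNA and 42.6, 50.7 and 40.0 CPM with Yap-shRNA, a change of 0.07 (SE 0.14). At the muscle isoform Prkcq (chr2:11171917-11172733) the values were 20.5, 19.1 and 30.5 CPM with LacZ-shRNA and 25.3, 26.0 and 24.8 CPM with Yap-shRNA, a change of 0.05 (SE 0.16). In all 3 the LacZ-shRNA samples enclosed the Yap-shRNA samples. The Prkci 5′ peak went from 29.3 ± 4.47 to 27.1 ± 0.75 CPM (SD, n = 3) and the Prkch 5′ peak from 10.1 ± 2.35 to 12.1 ± 0.63. Over the 6 peaks at 5′ ends the 95% intervals spanned -0.41 to 0.62 on the log2 scale.

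No other named peak had an unadjusted edgeR p under 0.05, though they include the largest change among the 42 linked peaks, in Prkcb. The highest Prkcd peak was intronic, 28.6 kb downstream, at 36.2 ± 4.59 CPM in LacZ-shRNA and 36.1 ± 2.23 CPM under Yap-shRNA (SD, n = 3). The Prkcd peak with the smallest p lay 4.9 kb upstream, with a change of -0.09 (SE 0.15). In Prkcb the highest peak, just past the 3′ end, held 14.9 to 19.3 CPM with LacZ-shRNA and 14.6 to 18.1 CPM with Yap-shRNA. A weak intronic Prkcb peak 253.3 kb downstream held 5.36 ± 1.30 and 3.46 ± 1.60 CPM, a change of -0.60 with an SE of 0.37 that lay between -1.01 without Yap-shRNA replicate 3 and -0.31 without Yap-shRNA replicate 2. Changes of the remaining named peaks were 0.28 (SE 0.22) for a Prkch intron and 0.11 (SE 0.20) for the internal Prkcq start.

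Sequence features of the linked peaks were set beside those of all peaks. An E-box occurred in 38.1% of them and 40.3% of all peaks, AP-1 in 11.9% and 16.6%, and a GC box in 23.8% and 40.4%. None held TGACGTCA, which 2.07% of all peaks did. Median width was 783 bases against 902, and median GC content 51.7% against 53.4%. An unbroken stretch of G or of C, with a minimum of 15 bases, occurred in 1 linked peak, in the Prkca intron 42.3 kb downstream, and in 1.13% of all peaks.

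Genes that act around the family were examined at the same windows. The list held 47 genes, all with a window, and 0 passed the edgeR test in either direction (0.0223% of all windows did), with 33 log2 fold changes above 0, 14 below and a median of 0.08, where the median of all windows was -0.01. Diacylglycerol kinases, which remove the activating lipid, had a median of 0.11 over 9 genes. The phospholipase C family, whose active enzymes produce that lipid, had 0.08 over 12. The kinase, scaffold and adaptor genes had a median of 0.05 over 10, related kinases 0.09 over 6, and substrates and other diacylglycerol-binding proteins 0.02 over 10. The unadjusted p was under 0.05 in 1 of the 47, against 4.9% of all windows. It was Prkd1, a protein kinase D gene activated downstream of protein kinase C, at 19.7 ± 3.18 CPM in LacZ-shRNA and 15.5 ± 0.79 CPM under Yap-shRNA (SD, n = 3, log2 fold change -0.38, SE 0.16, edgeR adjusted p 0.946). Its relative Prkd2 had the opposite sign, 66.0 ± 9.59 and 78.0 ± 3.19 CPM (log2 fold change 0.25, SE 0.14). Rasgrp4, a Ras activator that binds diacylglycerol, stood at 0.25 (SE 0.14) and Pard6b, a polarity partner of the atypical kinases, at -0.20 (SE 0.14).

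**Figure D5:**
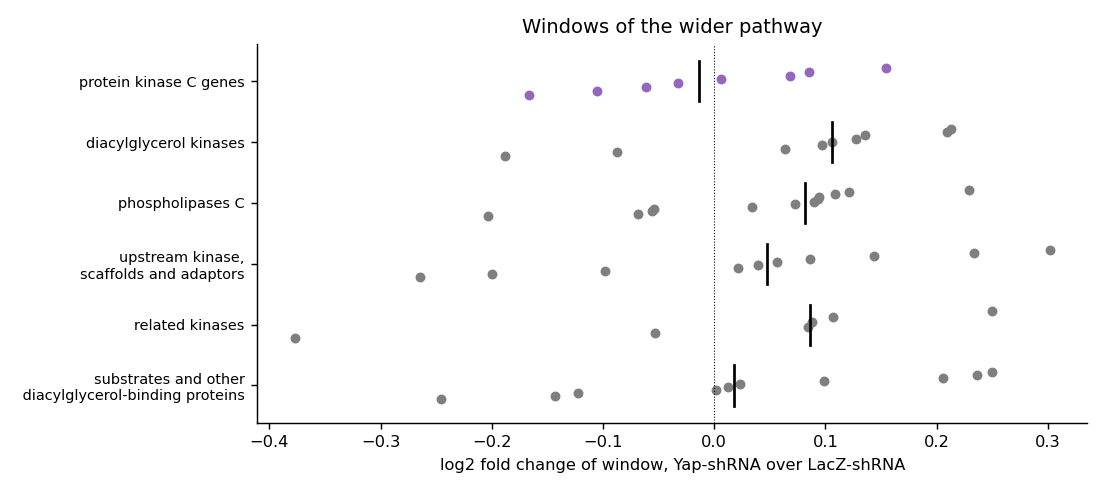
Log2 fold change of the window, Yap-shRNA over LacZ-shRNA, for the 8 protein kinase C genes (purple) and the 47 genes of the pathway list (grey) by group, with a bar at each group's median. The pathway medians lie between 0.02 and 0.11, and no gene passed the test.

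For each member the window most like it over the 6 samples was found by Pearson's r of log2 CPM among about 38880 windows, as a description only, since the highest of so many values over so few samples is high by selection. The nearest were Obox4-ps12 for Prkca (r 0.997), Gm45598 for Prkcb (0.997), Gm15558 for Prkcd (0.999), Eif4h for Prkce (0.998), Ola1 for Prkch (0.996), Zfp385a for Prkci (0.991), Map6 for Prkcq (0.999) and 4930557B06Rik for Prkcz (0.998). No gene was nearest to more than a single member.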

How the data were processed

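ATAC-seq counts from 3 LacZ-shRNA and 3 Yap-shRNA samples were used. Per the labels and methods, the authors used BWA 0.7.17 to map reads to GRCm38, SAMtools 1.8 to remove duplicates, MACS 1.4.2-1 to call peaks and featureCounts 1.5.0 to count reads. The deposited values are whole-number counts, not normalized, in windows and peaks with a mean of at least 10.

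The groups were compared by a quasi-likelihood test (edgeR 4.0.16, R 4.3.3) that used TMM scaling and had no covariates, and p-values were adjusted after Benjamini-Hochberg over each whole table, with a threshold of 0.05. Window extents were rebuilt from GENCODE M21, and in 99.98% of 5736 windows that overlap no other, the window count reached 0.95 of the reads in its own peaks. Promoter sequences came from RefSeq and peak sequences from the genome. Named features were all members, each member's highest peak and peak of smallest p, the 2 pathway genes of smallest p in each direction and each member's most similar window among those with a mean count of at least 50. Members and lists were chosen with earlier results of these data known. The study describes replicates as individual animals and the labels give several muscles of each kind per replicate, and p-values measure the spread between these samples. On simulated data with 200 of 49366 windows changed by 1 on the log2 scale the test recovered 74.5%, and of 36097 peaks 65.5%. At a change of 0.5 it recovered 8% and 17%. Alternatives were other tests (DESeq2 1.42.0, limma 3.58.1), scalings, filters, a replicate block, another peak link and leaving out each sample.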

Additional observations from a re-analysis of the deposited data

How the results depend on the processing

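No member window, linked peak or pathway window passed the threshold under the likelihood-ratio test, DESeq2, limma voom, RLE factors, library size alone, a mean count of at least 50, or without any 1 sample (0 calls in each). DESeq2 gave no adjusted p for 38284 windows and 19595 peaks, among them 25 of the 42 linked peaks and 11 of the 47 pathway windows, which its count leaves out. Linking peaks within 50 kb of any start in place of the gene body gave 1 called peak of 47. Among all peaks 0.618% were called. The called peak lay at the Tkt promoter, 40012 bases from the nearest Prkcd start, with a log2 fold change of -0.49 (edgeR adjusted p 0.0499). By CPM per window in place of CPM per kb, 0 of 8 members kept their rank. Leaving out a LacZ-shRNA sample left 5 to 6 members at their rank, with 5 without replicate 2.

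The vectors went into contralateral muscles, so LacZ-shRNA and Yap-shRNA samples may share mice, and the main test had no term for this. Same-numbered samples did not deviate together (r 0.19, -0.12 and 0.09 in windows), so the numbers were not taken as pairs. These correlations cannot exclude that samples share mice. With the replicate block 0 member windows, 0 linked peaks and 0 pathway windows passed.

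Library size alone raised the median log2 fold change of all windows to 0.05 and of all peaks to 0.14, and small values changed sign with it: the windows of Prkca (0.0017) and Prkcz (0.037), and the peaks of Prkcb at the 3′ end (0.0086), Prkcd at 28.6 kb (0.11) and upstream (0.051), and Prkci at the 5′ end (0.015). The Prkch window changed sign at a mean count of at least 50 (-0.0035). Leaving out each sample moved values across 0 in the windows of Prkca (-0.14 to 0.0010), Prkcd (-0.075 to 0.20), Prkch (-0.069 to 0.14), Prkcq (-0.098 to 0.20) and Prkcz (-0.15 to 0.11). It did so too in the promoter peaks of Prkca (-0.044 to 0.20), Prkce (-0.055 to 0.30) and Prkcq (-0.056 to 0.35), the internal Prkcq start (-0.068 to 0.34), and the Prkcd peaks at 28.6 kb (-0.095 to 0.098) and upstream (-0.24 to 0.048). The lowest Prkcd and Prkcq window values came without LacZ-shRNA replicate 1 and the highest Prkcz value without replicate 2. None of these values was called, and the cause was not tested.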
